A study of Mus musculus with 4 samples.

Results

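Ribosomal RNA is made in the nucleolus by RNA polymerase I as a long 45S precursor, which is cut into the RNAs of the small and large ribosomal subunits. The precursor genes lie in tandem arrays that genome assemblies largely leave out, with isolated copies placed elsewhere. Mature ribosomal RNA carries no long poly(A) tail, so poly(A) selection removes most of it, and what is left is often read as a measure of that selection. The 5 loci described here are the ribosomal RNA copy on mouse chromosome 17 and 4 further abundant single-exon loci that overlap no UCSC gene model. They were chosen by their position in the count table: a ranking by mean count puts exactly these 5 at the top of the 7254 single-exon intergenic loci, of 35299 loci in all.

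The data come from 1 group, Sham: hearts of C57BL/6J mice at 12 weeks of age, 2 weeks after a sham operation, with 4 biological replicates and no second group. Tissue was taken where the border of an infarct would have been, RNA was extracted with Trizol and poly(A)-selected, and both ends of the fragments were read over 100 bases. The free-text description of replicate 4 names an infarct border and leaves out sham, whereas the title, the source name and the treatment give sham. The 4 columns of the table are headed 3RL, 7LR, 8R and 12RL, names that tie no column to a replicate number.

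Recovered reads, summed over all loci, ran from 108345923 to 160670654 per library, which leaves out reads assigned to no locus. Values are normalised read counts: reads per locus divided by 1 size factor per library, not by length. With 1 group there is no comparison between conditions, and the level of each locus is what put it in the set, so levels, spread and library order are given as descriptions with no test. The models carry UCSC identifiers and no symbols, so the heart label was not checked against named marker genes. In bulk tissue, fewer cells of a type and less RNA per cell cannot be told apart.

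XLOC_014367 is the locus known as the 45S ribosomal RNA copy, at chromosome 17, 39979941 to 39985776 (mm9), 1 exon of 5836 bases with no strand. Its name comes from that position: the models give it no gene name, and no sequence was used to check it. XLOC_020855 lies at chromosome 3, 5860333 to 5860778, and spans 446 bases. XLOC_027117 lies at chromosome 6, 3150767 to 3151670, and spans 904 bases. XLOC_015555 lies at chromosome 18, 68851558 to 68851973, and spans 416 bases. XLOC_014480 lies at chromosome 17, 71313007 to 71313236, and spans 230 bases. Each is a single transcript model of 1 exon without strand, annotated as intergenic, and the other 4 carry no name or known role in the sources used here.

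The 45S copy had 436475 normalised counts in 3RL, 388625 in 12RL, 177901 in 7LR and 161196 in 8R. It was high in 3RL and 12RL and low in 7LR and 8R, with the lower of the high libraries 2.18 times the higher of the low ones. Its mean was 291049 ± 141814 (SD, n = 4), which ranked 32 among all loci, and the highest library held 2.71 times the lowest. Its CV was 48.7%, and the lowest value rested on 141792 reads.

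XLOC_020855 had 48397 counts in 3RL, 110263 in 12RL, 34425 in 7LR and 32950 in 8R. Library 12RL stood well above the other 3, at 2.28 times 3RL. The mean was 56509 ± 36506 (SD, n = 4) and the CV 64.6%, which fell to 22.1% without 12RL. The 45S copy exceeded it 5.15-fold by mean count.

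XLOC_027117 had 27100 counts in 3RL, 26677 in 12RL, 12284 in 7LR and 11066 in 8R. This is the shape of the 45S copy, with 3RL and 12RL nearly equal. The mean was 19282 ± 8799 (SD, n = 4), the CV 45.6% and the highest library 2.45 times the lowest.

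XLOC_015555 had 13582 counts in 3RL, 15743 in 12RL, 9779 in 7LR and 7429 in 8R, with a mean of 11633 ± 3733 (SD, n = 4) and a CV of 32.1%. XLOC_014480 had 8007 in 3RL, 12405 in 12RL, 6457 in 7LR and 7021 in 8R, with a mean of 8473 ± 2699 and a CV of 31.9%. In the second of these loci the difference rests on 12RL: without that library the CV was 11.0% and the highest library was 1.24 times the lowest. By mean count, the loci ranked 287 (XLOC_020855), 1040 (XLOC_027117), 1801 (XLOC_015555) and 2537 (XLOC_014480) among all 35299.

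**Figure D1:**
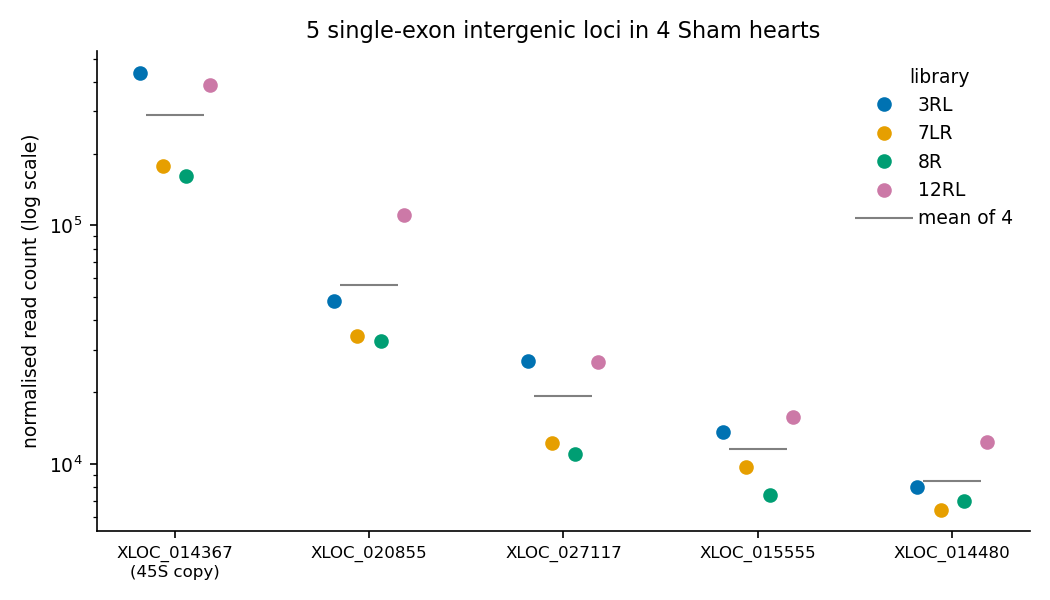
Normalised read counts on a log axis for the 5 loci; each point is 1 library and the grey line the mean of 4. In all 5 loci 3RL and 12RL lie above 7LR and 8R; in XLOC_020855 and XLOC_014480 12RL lies apart, at 110263 and 12405.

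The edge of the set is narrow in level. The next locus in the ranking, XLOC_010051 at chromosome 14, 32928486 to 32935983, had a mean of 7402 ± 1817 (SD, n = 4), so the last of the 5 was 1.14 times as high, a difference smaller than either SD. Its order was another one, with 5313 counts in 3RL, 7606 in 12RL, 6980 in 7LR and 9709 in 8R. XLOC_027385, at rank 7, hardly differed between libraries: its 4 values ran from 5740 to 6208, a CV of 3.33%. Without 12RL, 4 of the 5 loci stayed among the first 5 of the ranking.

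Set per length, the order of the loci changed. XLOC_020855 was highest, with 126701 ± 81852 normalised counts per kb of exon (SD, n = 4), and the 45S copy came second, with 49871 ± 24300. XLOC_014480 followed with 36838 ± 11734, XLOC_015555 with 27965 ± 8973 and XLOC_027117 with 21330 ± 9734. The SDs of neighbours in this order overlap throughout, but all loci were read in the same 4 libraries. Within every library, XLOC_020855 was above the 45S copy, XLOC_014480 above XLOC_015555 and XLOC_015555 above XLOC_027117. Only the 45S copy and XLOC_014480 changed places, in 8R, with 27621 and 30527 counts per kb. The counting mode is not given. If reads of 100 bases that only partly overlap a locus were counted, they weigh more in a short one. Per-length levels of the shortest loci may then be too high, which was not tested. The 5 loci also took the first 5 places per kb among single-exon intergenic loci, and XLOC_020855 ranked 21 per kb among all loci.

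All 5 loci had both 3RL and 12RL above both 7LR and 8R. Among all loci with a mean count of at least 10, 11.7% had that order (2214 of 18912), and of single-exon intergenic loci 13.0% (353 of 2706). The order was already known when the loci were set together, so the count is given beside its background and supports nothing by itself. The margin differed: the lower of 3RL and 12RL exceeded the higher of 7LR and 8R by a ratio of 2.17 in XLOC_027117, 1.41 in XLOC_020855, 1.39 in XLOC_015555 and 1.14 in XLOC_014480.

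The spread was large for loci of such depth. Each locus was set against the 500 loci nearest in rank of mean count, whose median CV was between 7.90% and 8.96%. The CVs of the 5 loci lay above those of 98.2% (XLOC_014480) to all 500 of them (XLOC_020855 and XLOC_027117). The 45S copy ranked 32 among all loci, so most of its 500 had lower counts. The CV of the 45S copy lay above 99.6% of its neighbours in level, and that of XLOC_015555 above 99.8%. Against single-exon intergenic loci with a mean of 50 or more, all of which apart from the 5 have lower counts, the same percentiles were 85.4 for the 45S copy, 94.2 for XLOC_020855, 83.0 for XLOC_027117, 64.9 for XLOC_015555 and 64.2 for XLOC_014480. Without 12RL, the CV of XLOC_014480 lay above 71.0% of the loci near it in level. For comparison, a CV of 10.6% and a ratio of 1.26 between highest and lowest library were the medians over all 14424 loci with a mean of at least 50.

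**Figure D2:**
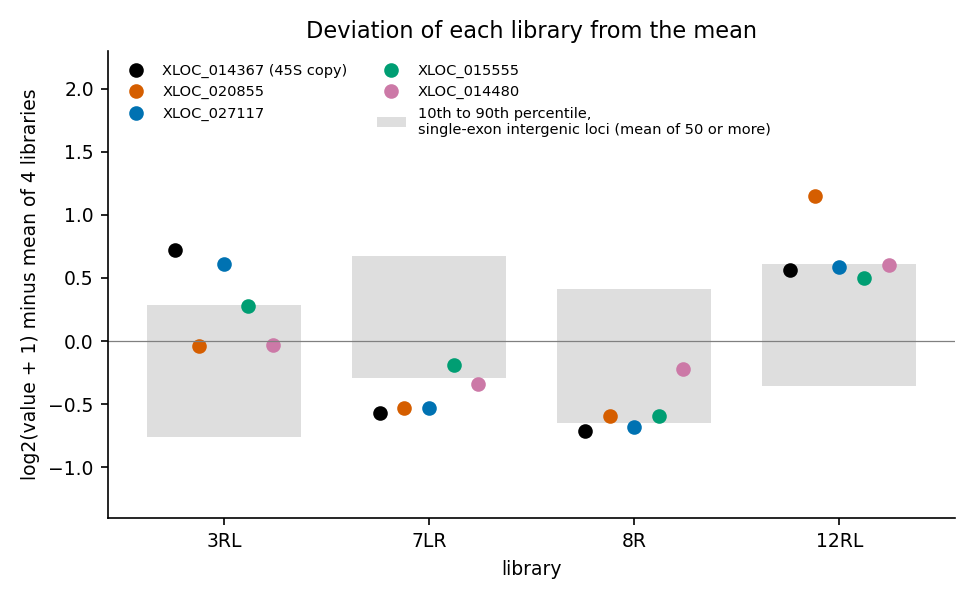
Log2(value + 1) of each library minus the mean of the 4 libraries, for the 5 loci (points) and for single-exon intergenic loci with a mean of 50 or more (grey bars, 10th to 90th percentile). The 45S copy sits at 0.72 in 3RL and -0.71 in 8R, and XLOC_020855 at 1.15 in 12RL and -0.04 in 3RL.

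The loci did not share 1 profile. Likeness was measured as the Euclidean distance between log2(value + 1) profiles centred on their mean over the 4 libraries, where 0 is the same shape. XLOC_027117 lay at 0.13 from the 45S copy, XLOC_015555 at 0.60, XLOC_014480 at 0.93 and XLOC_020855 at 0.97. Among the other pairs the distances ran from 0.49 (XLOC_027117 and XLOC_015555) to 0.86 (XLOC_020855 and XLOC_027117).

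Read for read, XLOC_027117 kept an almost fixed proportion to the 45S copy. It held 5.85% of the summed reads of both loci in 3RL (95% Wilson interval 5.77 to 5.92), 6.42% in 12RL (6.33 to 6.52), 6.46% in 7LR (6.34 to 6.58) and 6.42% in 8R (6.30 to 6.55). Library 3RL lay below the other 3 beyond counting error, and the whole range was 1.10-fold while the counts of the 45S copy ranged 2.71-fold. Intervals here cover counting error only, since reads from 1 amplified library are not independent molecules.

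The other 3 loci shifted against the 45S copy. XLOC_020855 made up 9.98% of the summed reads in 3RL (9.89 to 10.1), 22.1% in 12RL (22.0 to 22.2), 16.2% in 7LR (16.0 to 16.4) and 17.0% in 8R (16.8 to 17.2), a 2.21-fold range that was 1.36-fold without 3RL. XLOC_015555 ranged 1.73-fold, from 3.02% in 3RL to 5.21% in 7LR. XLOC_014480 ranged 2.32-fold, from 1.80% in 3RL to 4.17% in 8R, and 1.35-fold without 3RL. All 4 loci had their lowest proportion in 3RL, the library in which the 45S copy, which enters each proportion, was highest.

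**Figure D3:**
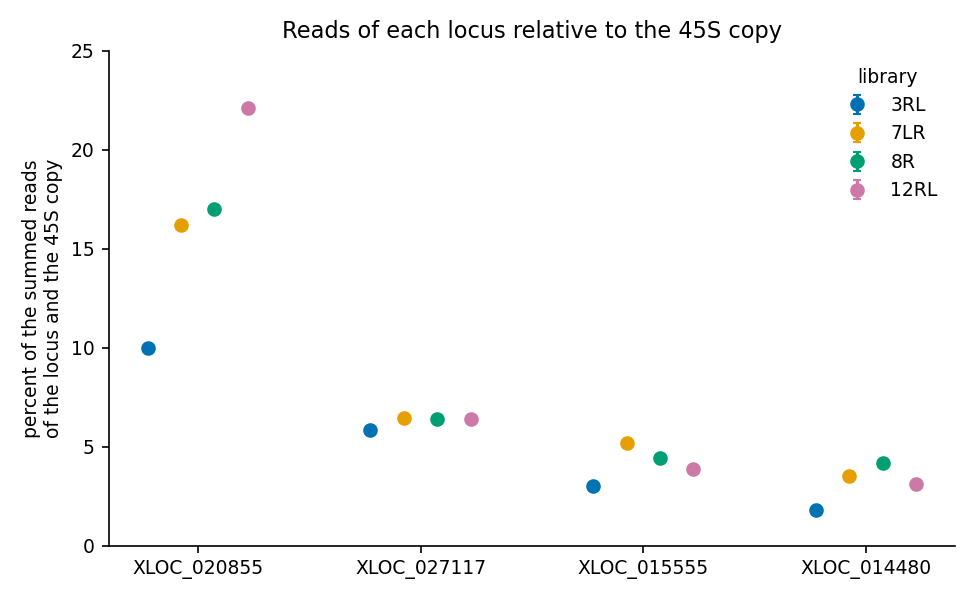
Reads of each locus as a percent of the summed reads of that locus and the 45S copy, by library, with 95% Wilson intervals (mostly smaller than the points). XLOC_027117 stays between 5.85% and 6.46%, while XLOC_020855 runs from 9.98% to 22.1%.

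Of all 14424 loci with a mean of 50 or more, XLOC_027117 had the profile closest to that of the 45S copy. The next were XLOC_015055 at 0.13, a UCSC locus of up to 10 exons on chromosome 18, 55047702 to 55152245, with a mean of 1737 counts; XLOC_033869 at 0.17, a single exon on chromosome 9, 90039650 to 90041287, with a mean of 60.9; XLOC_031630 at 0.21, a single exon on chromosome 8, 36185822 to 36192730, with 79.0; and XLOC_010979 at 0.22, an intergenic locus of up to 3 exons on chromosome 15, 74025017 to 74034791, with 302. The median distance over all these loci was 1.34, and 42 of them (0.291%) lay within 0.5. The list is a description over 4 libraries, and none of its 5 loci was kept when Pearson's r took the place of the distance. Among the 482 single-exon intergenic loci at that level, XLOC_030200 (chromosome 7, 137978003 to 137978164) at 0.25 and XLOC_027237 (chromosome 6, 49186444 to 49186616) at 0.32 completed the nearest 5.

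The 4 shorter loci are unusual in length. The median length of the 2706 single-exon intergenic loci at a mean of at least 10 was 2086 bases, and only 0.961% were shorter than XLOC_014480, 3.03% shorter than XLOC_015555, 3.40% shorter than XLOC_020855 and 11.3% shorter than XLOC_027117. The 45S copy is long, with 92.7% of these loci shorter. Loci of up to 250 bases with high counts in 12RL were also found outside the 5, at ranks 8, 10 and 15 of the ranking by mean count. XLOC_008506 (238 bases, chromosome 13, 9833542 to 9833779) had 2417 counts in 3RL, 5933 in 12RL, 1679 in 7LR and 2011 in 8R. XLOC_001679 (150 bases, chromosome 1, 104524766 to 104524915) had 1590 in 3RL, 2952 in 12RL, 1307 in 7LR and 1465 in 8R. XLOC_012490 (177 bases, chromosome 16, 17222408 to 17222584) had 1077 in 3RL, 2721 in 12RL, 897 in 7LR and 923 in 8R. These 3 loci are named because they are the only ones of up to 250 bases among the next 10, a choice made after their values were seen. All 3 were highest in 12RL, as was 1 of the 7 longer ones. In the whole class of up to 250 bases described below, 5 of the 10 loci other than XLOC_014480 were highest in 12RL. With the 5 loci left out, it was 3 of 9 from 250 to 500 bases and 6 of 18 from 500 to 1000. For longer loci it was 34 of 172 from 1000 to 4000 bases and 88 of 269 above 4000, including the 45S copy.

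XLOC_012490 and XLOC_008506 were also the 2 single-exon intergenic loci with profiles closest to that of XLOC_020855, at distances of 0.24 and 0.25. In the class of up to 250 bases with a mean of 50 or more, 6 of the 10 loci other than XLOC_014480 had 3RL and 12RL above 7LR and 8R, and the median log2 deviation was 0.59 in 12RL, -0.11 in 3RL, -0.32 in 8R and -0.40 in 7LR. In the class from 250 to 500 bases, 1 of the 9 loci other than XLOC_020855 and XLOC_015555 had the order, with medians of 0.09 in 12RL, -0.38 in 3RL, -0.06 in 8R and 0.09 in 7LR. In the class from 500 to 1000 bases, it was 0 of the 18 loci other than XLOC_027117, with medians of -0.07 in 12RL, -0.32 in 3RL, 0.04 in 8R and 0.19 in 7LR. The 172 loci from 1000 to 4000 bases had the order in 15.1%. In the 269 loci above 4000 bases, including the 45S copy, 14.9% had that order and the medians were 0.16 in 12RL, -0.13 in 3RL, -0.16 in 8R and 0.21 in 7LR. Counts of 9 to 18 loci are few, and the length classes were set after the data were seen. The 299 single-exon loci with a UCSC model in the length range of the 5, from 230 to 5836 bases, showed medians near 0 in every library (0.03 in 3RL, -0.01 in 12RL, -0.05 in 7LR and 0.05 in 8R), and 14.7% of them had the order; only 6 of the 299 were as short as 500 bases or less.

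**Figure D4:**
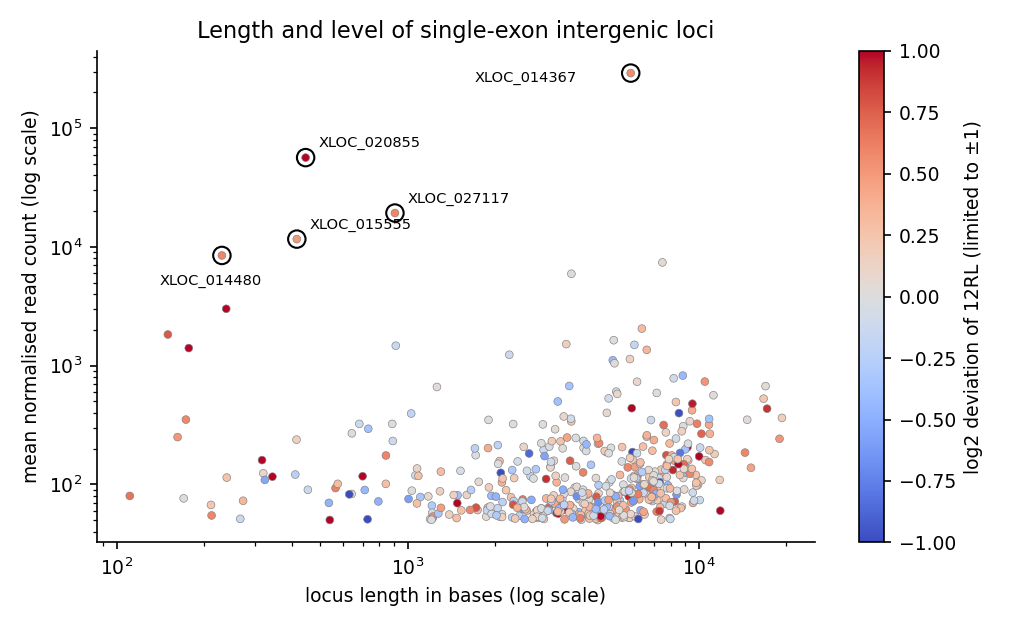
Length and mean normalised count, both on log axes, of the 482 single-exon intergenic loci with a mean of 50 or more; colour gives the log2 deviation of 12RL from the mean of the 4 libraries, and the 5 loci are ringed. Most loci are longer than 1000 bases and lie far below the 5, and XLOC_008506, XLOC_001679 and XLOC_012490, of up to 250 bases, have raised values in 12RL.

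Most of the 5 lie in regions with few transcribed loci. The nearest UCSC locus was 358 kb from the 45S copy, 283 kb from XLOC_020855, 263 kb from XLOC_015555 and 86.8 kb from XLOC_027117, where the median for single-exon intergenic loci at a mean of at least 10 was 9.73 kb. Both neighbours of the 45S copy, XLOC_013200 and XLOC_013918, were at 0 in all 4 libraries. The nearest locus with a mean of 10 or more lay 1026 kb away on one side, XLOC_013922 with a mean of 77.3 counts. To the left of XLOC_020855, the UCSC locus XLOC_020253 had a mean of 4105 counts with values from 3989 to 4268, and to the right XLOC_020254 was at 0 in all libraries. XLOC_027117 lies beside XLOC_027116, with a mean of 6.09, and XLOC_025560, with a mean of 12.0. XLOC_015555 lies between XLOC_015554, with a mean of 23.3, and XLOC_014841, at 0 throughout.

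XLOC_014480 is the exception, 3.99 kb from a UCSC locus of low count (XLOC_013367, mean 3.92) and 9.24 kb from an abundant one. That abundant neighbour, XLOC_014108, had 88846 counts in 3RL, 73658 in 12RL, 75104 in 7LR and 103056 in 8R. It was highest in 8R and lowest in 12RL, while XLOC_014480 was highest in 12RL. Of the 17 nearest neighbours of any kind, 1 had 3RL and 12RL above 7LR and 8R: XLOC_013367, a locus of at most 6.31 counts. Among the 17, XLOC_013200, XLOC_013918, XLOC_020254 and XLOC_014841 had no counts in any library and could not show the order. The share with that order among all loci with a mean of at least 10 was 11.7%, so 1 of 17 supports nothing by itself.

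The mitochondrial chromosome offers other abundant single-exon transcripts, among them those of the mitochondrial ribosomal RNAs. Of its 8 loci, 0 had 3RL and 12RL above 7LR and 8R. Among all loci with a mean of at least 10, 11.7% had that order, so 0 of 8 is near that share and supports nothing by itself. The median log2 deviation of the 8 loci was -0.04 in 3RL, -0.02 in 12RL, -0.15 in 7LR and 0.21 in 8R. The locus at positions 70 to 852, XLOC_034011, lies in the gene for the small mitochondrial ribosomal RNA. It had 252012 counts in 3RL, 305625 in 12RL, 243760 in 7LR and 348090 in 8R. Its mean of 287372 ± 48895 (SD, n = 4) was close to that of the 45S copy, with a CV of 17.0% and the highest value in the library where the 45S copy was lowest. XLOC_034012, at positions 1149 to 3703, covers most of the large mitochondrial ribosomal RNA gene and the gene after it, and had 4924285 ± 529227 counts with a CV of 10.7%. Per kb of exon, XLOC_034011 had 367014 ± 62446 counts and the 45S copy 49871 ± 24300 (SD, n = 4 each).

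Together the 5 loci took 0.318% of all normalised counts in 3RL, 0.324% in 12RL, 0.148% in 7LR and 0.120% in 8R. The mean was 0.228% ± 0.108 (SD, n = 4), of which the 45S copy held 0.171% ± 0.0852. They made up 67.7% ± 11.2 of the counts of single-exon intergenic loci, from 57.5% in 7LR to 78.9% in 3RL. Of the counts of all 9221 loci without a UCSC model they held 49.2% in 3RL, 45.7% in 12RL, 26.7% in 7LR and 26.7% in 8R.

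The order of the libraries in that whole class changed when the 5 loci were left out. Loci without a UCSC model took 0.647% of counts in 3RL, 0.710% in 12RL, 0.555% in 7LR and 0.451% in 8R. With the 5 left out, the remaining 9216 loci took 0.329% in 3RL, 0.386% in 12RL, 0.407% in 7LR and 0.331% in 8R. The CV over libraries was 10.8% without them and 19.1% with them, and 7LR became the highest library in place of 12RL. Without the 45S copy alone the CV was 13.0%. For single-exon intergenic loci alone, the CV was 13.4% without the 5 and 33.7% with them.

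**Figure D5:**
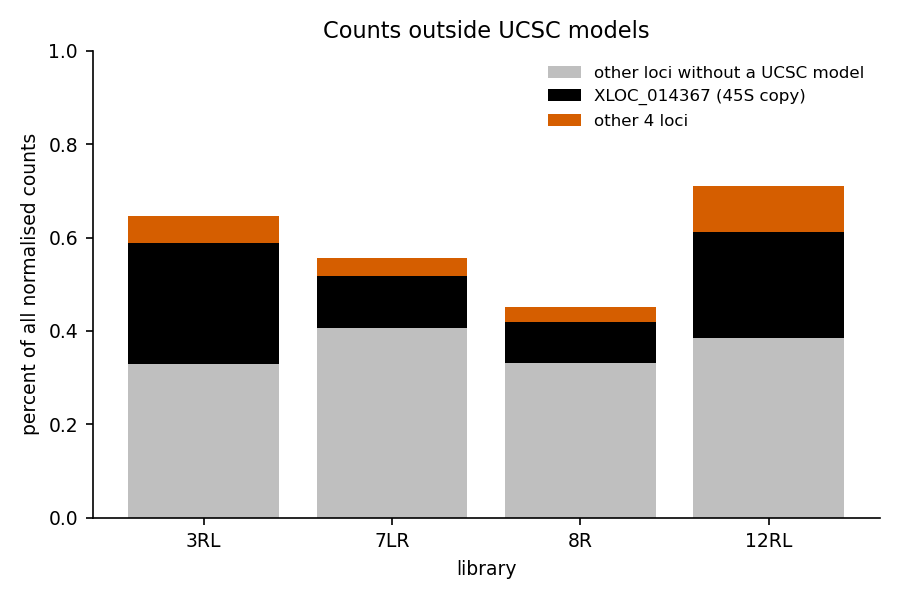
Percent of all normalised counts in loci without a UCSC model, by library: the 45S copy, the other 4 loci and all 9216 others. The others take between 0.329% and 0.407% in every library, while the 45S copy takes between 0.0883% and 0.260%.

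Mitochondrial loci took 31.2% of counts in 3RL, 30.2% in 12RL, 29.2% in 7LR and 32.3% in 8R, an order unlike that of the 5 loci. Depth, as recovered reads summed over all loci, was lowest in 12RL and highest in 8R. The efficiency of poly(A) selection, the RNA quality of each heart and the placement of reads that match several ribosomal RNA copies were not tested.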

How the data were processed

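Poly(A)-selected RNA of 4 sham-operated mouse hearts was sequenced as paired reads. The submitters' processing notes name mm9 as build, HTSeq (0.5.4p2), DESeq, Cufflinks (2.0.2) and TopHat2 (2.0.5). Not given in the sources used here are strandedness, counting mode, the treatment of reads with several matches and which libraries were assembled. The authors deposited a table of signal values, read counts per locus divided by 1 size factor per library, and other values, the exon coordinates of merged transcript models. All values (100%) were whole multiples of the smallest value above 0 in their column, within 0.001, so whole reads were recovered. Depth, summed over all loci, ran from 108345923 to 160670654 reads. Of 49285 UCSC identifiers in the models, 0 were found in the RefSeq table for GRCm38, so loci go by their identifiers and mm9 positions.

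Loci were called single-exon intergenic where every model had class code u and 1 exon. Spread was the CV, set against the 500 loci nearest in rank of mean. Profiles used a pseudocount of 1, which understates differences of low loci. The named loci are the 5, their neighbours, the mitochondrial loci, the next in rank and the 5 nearest profiles. The loci, lists and order of libraries were chosen with earlier results of these data known. No test between conditions was possible with 1 group. The steps were tested on simulated data. Alternatives were TMM (edgeR 4.0.16, R 4.3.3), the median of ratios, equal table totals, other pseudocounts, minimum means and measures, and leaving out each library. Other steps used Python 3.11.15, numpy 2.4.6, pandas 2.3.3 and scipy 1.17.1.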

Additional observations from a re-analysis of the deposited data

Results flagged for a closer look

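At 1 of the 44 named loci with a count above 0, XLOC_012490 on chromosome 16, a single library lay far from the others: 12RL had 2721 normalised counts, against 1077 in 3RL, 897 in 7LR and 923 in 8R. Chance alone picks out about 1 in 20 groups of 4 in this way, and 0 of the 5 loci described above were picked out.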

How the results depend on the processing

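The mean level of each of the 5 loci moved by less than its SD in all 35 recalculations (3 scalings and leaving out each library). Leaving out 1 of 4 libraries can never move a mean by as much as its SD, so that part checks nothing. The mean of XLOC_020855 fell from 56509 to 38591 without 12RL. All 5 kept the library order under each scaling. The 5 highest single-exon intergenic loci were the same per kb and without any 1 library, except 12RL (4 of the 5). No scaling moved the median locus of a library by more than 0.10 on the log2 scale. The ratio of highest to lowest library of the 45S copy, 2.71 as reported, was 2.95 under equal totals, 2.77 under TMM and 2.74 under the median of ratios; that of XLOC_020855 rose to at most 3.58. The share of the 5 loci was 0.0563% without the 45S copy and 37.1% of loci without a UCSC model. The percentile of spread among single-exon intergenic loci only was 85.4 (XLOC_014367), 94.2 (XLOC_020855), 83.0 (XLOC_027117), 64.9 (XLOC_015555) and 64.2 (XLOC_014480). This percentile was not recalculated with other measures or scalings. Those moved the percentile among the 500 loci nearest in mean by less than 5. Among those 500, leaving out 1 library gave 94.4 to 100 for XLOC_020855 and 71.0 to 99.0 for XLOC_014480, both lowest without 12RL. The loci nearest to the 45S copy were the least stable. Of the 5 named among all loci, 0 were kept with Pearson's r, 2 at a minimum mean of 10, 3 at 200, 3 with a pseudocount of 10 and 0 (without 12RL) to 3 when 1 library was left out; among single-exon intergenic loci, 2 were kept at a minimum of 10 and 3 at 200. XLOC_027117 stayed among the nearest 5 single-exon intergenic loci in 8 of 8 alternatives, and among all loci in 5 of 8, not with Pearson's r or without 8R or 12RL. The causes were not tested. The length classes, the proportions without 3RL, the sums without the 5 loci and the profiles near XLOC_020855 were chosen after seeing the data. With 1 group there was nothing to pair between conditions, and the columns carry no replicate numbers. Depth limits none of the 5 loci, each with at least 5670 reads in every library.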
